A study of Mus musculus with 6 samples.

Results

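Glycolytic enzyme genes encode the cytosolic enzymes that carry glucose to pyruvate and lactate. The genes were taken by name: Hk1, Hk2, Gpi1, Pfkl, Aldoa, Tpi1, Pgk1, Eno1, Pkm and Ldha. Of these 10 genes, 8 were measured, by 12 of the 28944 probe sets of the array, and no probe set used here named Gpi1 or Eno1 alone. These 8 were among 19938 genes tested. Glycolysis traps glucose by phosphorylation (hexokinases), commits it through phosphofructokinase, splits the hexose with aldolase and harvests ATP at phosphoglycerate kinase and pyruvate kinase. Lactate dehydrogenase then reduces pyruvate to lactate and restores the NAD+ the pathway consumes. Macrophages are known to lean on this pathway when activated, and hypoxia raises many of its genes through the factor HIF-1.

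The arrays compared starry-sky tumor-associated macrophages (SS-TAM) with germinal center macrophages (GCM), which both take up apoptotic B cells. SS-TAM were cut by laser, after CD68 staining, out of tumors that BL2 cells (an established line from human Burkitt's lymphoma) had formed in female Balb/c SCID mice, a strain without mature T and B cells. These tumors measured 1.44 cm2 and hold human cells around the mouse macrophages. GCM were cut by laser from germinal centers of female CSF1R EGFP transgenic Balb/c mice, whose transgene puts green fluorescent protein under the promoter of a macrophage growth factor receptor, after 2 doses of sheep red blood cells. How the GCM were recognised in the sections is not given in the labels. Their tissue is given once as spleen and once as lymph nodes in the labels. Each of the 6 mice, 6 to 12 weeks old, gave 1000 cells and 1 array, so that each group had 3 arrays. Host strain, tumor and tissue differ together between the groups and cannot be told apart.

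Values are linear intensities in arbitrary units, and fold changes are log2 SS-TAM minus GCM, so that positive values mean higher in SS-TAM. Array medians were 6.3 to 6.5 for SS-TAM and 6.1 to 6.2 for GCM, but the 99th percentile of intensity lay between 241.5 and 283.67 for SS-TAM and between 613.8 and 663.81 for GCM. The marker Cd68, whose staining chose the SS-TAM, had 584.5, 492.4 and 669.8 in SS-TAM and 97.8, 47.8 and 71.5 in GCM. The summed intensity of 15 macrophage markers was 2765.8 to 3553.5 in SS-TAM and 1235.2 to 1397.2 in GCM, with 11 of 15 called higher in SS-TAM and 0 lower. The sum of the 11 measured T cell markers was 127.4 to 157 in SS-TAM and 1104.2 to 1483.2 in GCM, and 7 were called lower. That of 10 B cell markers was 95.6 to 105.4 in SS-TAM and 159.4 to 387.7 in GCM, and 2 were called lower. The SCID hosts of the SS-TAM lack mature T and B cells by strain. The BL2 cells around the SS-TAM are human, and how far mouse probe sets read their RNA was not tested. The B cell sum is thus no measure of the BL2 cells captured. For other cell types in such captured samples, fewer cells and less RNA per cell cannot be told apart. The part of T cells, B cells and other cells in the results on glycolytic genes was not tested.

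Of the 8 glycolytic enzyme genes measured, 5 did not pass the test between SS-TAM and GCM. Pkm (pyruvate kinase) was 2.48-fold higher in SS-TAM by the brighter of its 2 probe sets and 2.16-fold higher by the other. The call of that other probe set held in 1 of 6 fits that left out 1 array. Hk2 (hexokinase 2) was called higher at an intensity near the array median, and Hk1 (hexokinase 1) was lower by 1 probe set of its 2. Pfkl, Aldoa, Tpi1, Pgk1 and Ldha did not pass the test. Of the 8 genes, 2 were therefore called higher (Benjamini-Hochberg adjusted p under 0.05 over all genes in limma) and 1 lower. Over all genes, 5.16% were called higher and 4.74% lower, or 1028 and 946 genes, and with arrays centred on their medians 746 and 1169. The median log2 fold change was 0.36 for the 8 genes and 0.04 for all genes, and that of the 8 genes was 0.21 without GCM 2 and 0.58 after quantile normalization. Without Hk1 it was 0.40 over 7 genes, with 2 called higher and 0 lower. All these directions are relative to the level of a whole array. With arrays scaled to the macrophage markers instead, 98.8% of all genes were called lower, their median became -1.56, and 7 of the 8 genes were called lower, a share no higher than that of all genes.

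**Figure D1:**
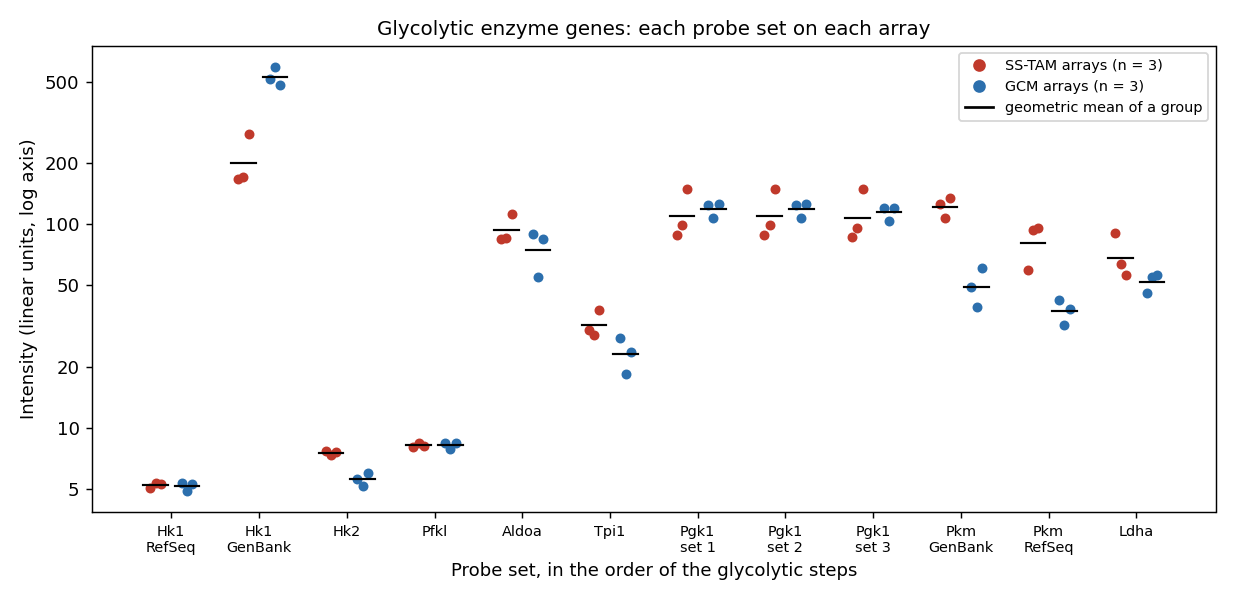
Intensity (log axis) of the 12 probe sets of 8 glycolytic enzyme genes on each array, with SS-TAM (red) left of GCM (blue) and black lines at the geometric means of 3 arrays. The groups separate for the GenBank probe set of Hk1 (SS-TAM below), and for Hk2, Tpi1 and both Pkm probe sets (SS-TAM above).

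The DNA just before the start of 4 of these genes is shown because ACGTG, a form of the core motif of HIF-1, lies in it. The longer CACGTG of MYC-family factors lies only in the window of Ldha among those shown. The windows hold the 250 bases upstream of a RefSeq transcript start in GRCm38.p6, 5′ to 3′ on the gene's strand, and capitals mark ACGTG read on either strand (CACGT is its other strand, and CACGTG holds both).
Pkm, chr9:59656977-59657226 (+): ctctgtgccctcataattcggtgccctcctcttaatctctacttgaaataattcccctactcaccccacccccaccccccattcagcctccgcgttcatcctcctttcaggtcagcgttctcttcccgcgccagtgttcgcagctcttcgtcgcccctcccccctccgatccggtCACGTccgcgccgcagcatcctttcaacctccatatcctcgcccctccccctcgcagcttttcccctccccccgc
Hk2, chr6:82774455-82774704 (-): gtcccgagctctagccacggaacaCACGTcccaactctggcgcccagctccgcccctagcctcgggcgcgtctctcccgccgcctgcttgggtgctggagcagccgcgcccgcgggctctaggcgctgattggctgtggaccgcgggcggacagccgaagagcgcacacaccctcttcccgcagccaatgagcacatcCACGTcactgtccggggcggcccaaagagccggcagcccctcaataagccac
Pgk1, chrX:106186850-106187099 (+): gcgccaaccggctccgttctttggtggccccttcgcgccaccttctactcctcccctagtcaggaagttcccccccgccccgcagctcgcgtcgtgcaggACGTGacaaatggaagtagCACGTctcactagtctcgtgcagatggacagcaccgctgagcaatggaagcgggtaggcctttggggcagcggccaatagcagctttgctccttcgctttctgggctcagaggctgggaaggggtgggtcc
Ldha, chr7:46845554-46845803 (+): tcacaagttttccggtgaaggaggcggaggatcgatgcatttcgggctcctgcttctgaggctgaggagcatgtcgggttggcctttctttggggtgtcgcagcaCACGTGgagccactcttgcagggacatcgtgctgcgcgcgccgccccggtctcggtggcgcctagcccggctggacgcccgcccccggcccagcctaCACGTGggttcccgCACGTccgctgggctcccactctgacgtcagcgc
All 10 genes had windows, 17 in all, and 6 windows of 5 genes (Aldoa, Hk2, Ldha, Pgk1 and Pkm) held the motif, against 16.6% of 32851 windows of all genes. The Aldoa windows with the motif overlap and hold the same site, which is thus counted more than once. Pkm and Ldha each also had a window without the motif, which is not shown. The window of Ldha shown held CACGTG at 2 places, and 6.02% of all windows held it. These windows were chosen for printing after the matches were seen, and a match is a description of the sequence only. Of the 4 genes shown, Pkm and Hk2 were called higher in SS-TAM, and Pgk1 and Ldha were not called.

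Hexokinases make glucose 6-phosphate, the first product of the pathway. Hk2, the inducible isozyme of muscle, tumors and activated immune cells, had intensities of 7.7, 7.4 and 7.6 in SS-TAM, against 5.6, 5.2 and 6 in GCM. All SS-TAM arrays were above all GCM arrays, at levels close to the median of an array (49.38% of genes had a lower mean). The log2 fold change was 0.44 (SE 0.07, 95% CI 0.27 to 0.61, limma adjusted p = 0.0172). With an offset of 8 added before log2, the change was 0.20, and the gene was left out where a mean intensity of 10 was asked for, so its size depends on how dim values are treated. The call was lost without GCM 1 or GCM 2 (adjusted p up to 0.0707), and with array weights (0.0553).

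Hk1, the housekeeping hexokinase of most cells, gave a call on 1 of its 2 probe sets. The brighter one, which stood for the gene, had 167, 170.2 and 277.1 in SS-TAM, against 516.9, 588.2 and 482.7 in GCM. All SS-TAM arrays lay below all GCM arrays, and the log2 fold change was -1.41 (SE 0.21, 95% CI -1.93 to -0.88, adjusted p = 0.0152). The probe set annotated with RefSeq transcripts of Hk1 had 5.1, 5.4 and 5.3 in SS-TAM, against 5.4, 4.9 and 5.3 in GCM. There, at a level below the array medians, the groups overlapped, with a log2 fold change of 0.02 (95% CI -0.13 to 0.17, adjusted p = 0.86). With that probe set for Hk1, a choice made after seeing the data, 0 of 8 genes were called lower.

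The annotation of the brighter Hk1 probe set was a single GenBank record. The same record annotated 18 probe sets, of which 16 also named Rpl17, a protein of the large ribosomal subunit, and were thus assigned to neither gene. All 16 were lower in SS-TAM on every array, with means of 76.2 to 275 in SS-TAM and 434 to 904 in GCM and log2 fold changes of -2.79 to -1.72. The brighter Hk1 probe set lay beside these in level, whereas the RefSeq probe set of Hk1 lay below the array medians. Whether the brighter probe set measured Hk1 was not tested, and the call for Hk1 rests on it. It was also lost after quantile normalization (log2 fold change -0.19, adjusted p = 0.515), without SS-TAM 2 and without any 1 of the GCM arrays (adjusted p up to 0.0761).

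**Figure D2:**
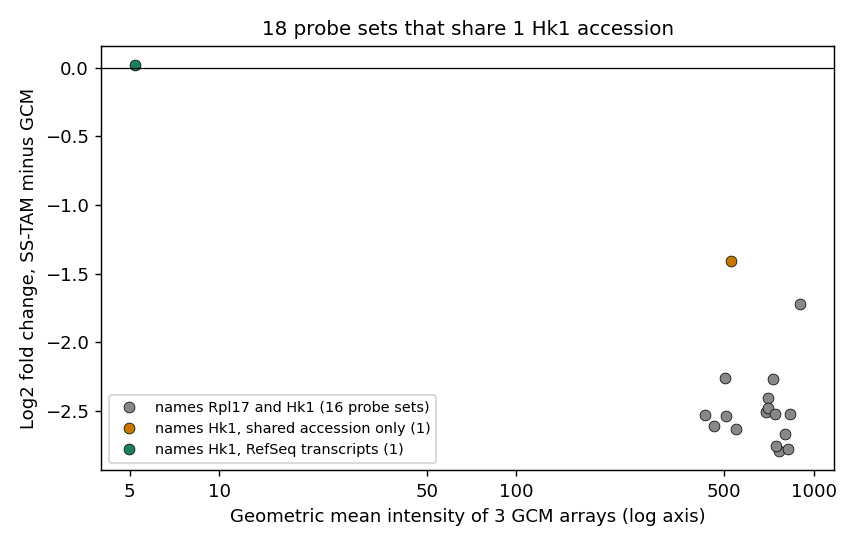
Log2 fold change (SS-TAM minus GCM) against the geometric mean intensity of 3 GCM arrays (log axis) for the 18 probe sets that share 1 GenBank record of Hk1. The 16 that also name Rpl17 (grey) lie from -2.79 to -1.72, the brighter Hk1 probe set (orange) at -1.41 and the RefSeq probe set of Hk1 (green) at 0.02.

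The shift between both hexokinases, as the difference of their log2 fold changes (Hk2 minus Hk1), was 1.84 with the brighter Hk1 probe set and 0.42 with the RefSeq one. Its exact permutation p was 0.1 (two-sided) for either choice, the smallest that 3 against 3 arrays allow. Over the 3 isozyme pairs compared, with the brighter Hk1 probe set, the adjusted p was 0.3.

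Pfkl encodes the liver-type subunit of phosphofructokinase, the committed and most regulated step. Its intensities were 8.1, 8.4 and 8.2 in SS-TAM, against 8.4, 7.9 and 8.4 in GCM. The groups overlapped and both averaged 8.23 (SD 0.153 in SS-TAM, 0.289 in GCM, n = 3 each). The 95% CI of its log2 fold change ran from -0.13 to 0.13. That interval describes dim values, and the gene was left out where a mean intensity of 10 was asked for. Pfkp, the platelet-type subunit, was also dim, with means of 6.77 in SS-TAM and 6.87 in GCM. It differed from Pfkl by 0.03 in log2 fold change (exact permutation p = 1).

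Aldolase A, from Aldoa, cleaves fructose 1,6-bisphosphate, and triosephosphate isomerase, from Tpi1, interconverts both products. Aldoa had 84, 85.7 and 112 in SS-TAM, against 89.7, 55 and 84.3 in GCM. Its groups overlapped, since GCM 1 lay above SS-TAM 1 and 2 and GCM 3 just above SS-TAM 1. The log2 fold change of 0.32 did not pass the test (95% CI -0.22 to 0.85, adjusted p = 0.396). After quantile normalization it was 0.85 and passed (adjusted p = 0.0373). Tpi1 had 30.2, 28.7 and 38.1 in SS-TAM, against 27.7, 18.4 and 23.7 in GCM. All SS-TAM arrays were above all GCM arrays, yet the log2 fold change of 0.48 did not pass the test (95% CI 0.04 to 0.93, adjusted p = 0.167).

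Of the 8 genes, 3 had every SS-TAM array above every GCM array (Hk2, Tpi1 and Pkm) and 1 had every SS-TAM array below (Hk1), and over all genes 18.5% and 11.5% did so.

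Pgk1, for phosphoglycerate kinase, makes the first ATP of the pathway. Its intensities were 88.2, 98.4 and 149.2 in SS-TAM, against 124.7, 106.7 and 125.3 in GCM. SS-TAM 3 was the highest array and SS-TAM 1 and 2 the lowest, so that the GCM arrays lay within the range of SS-TAM. The log2 fold change was -0.12 (95% CI -0.63 to 0.38, adjusted p = 0.734), and it was 0.54 after quantile normalization, also without a call (adjusted p = 0.142). Pgk1 had 3 probe sets with the same accessions, of which 2 held identical values, and the third gave a log2 fold change of -0.10.

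Pkm, the pyruvate kinase of most tissues other than liver and red blood cells, makes the second ATP and releases pyruvate. Its splice forms M1 and M2 were not told apart here. The brighter of its 2 probe sets, annotated by 2 GenBank records and by 0 RefSeq transcripts, had 124.8, 106.6 and 134.7 in SS-TAM, against 49.2, 39.3 and 61.1 in GCM. The lowest SS-TAM array was well above the highest GCM array, with means of 122 ± 14.3 in SS-TAM and 49.9 ± 10.9 in GCM (SD, n = 3 each). The log2 fold change was 1.31 (SE 0.18, 95% CI 0.87 to 1.75, adjusted p = 0.0109), and it stayed called when any 1 of the 6 arrays was left out (adjusted p 0.0196 to 0.0493). With arrays scaled to the macrophage markers it was -0.29 and not called (adjusted p = 0.123).

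The second Pkm probe set, annotated with RefSeq transcripts, had 59.7, 93.7 and 95.3 in SS-TAM, against 42.6, 32.1 and 38.5 in GCM. Again every SS-TAM array was above every GCM array, with SS-TAM 1 nearest to the GCM arrays. Its log2 fold change was 1.11 (SE 0.21, adjusted p = 0.0268 over 21789 probe sets). This call was lost without SS-TAM 2, without SS-TAM 3 and without any 1 of the GCM arrays (adjusted p up to 0.106). The probe sets of Pkm share accessions and are not independent measures of the gene. In the fit of probe sets, 3 of the 12 were called higher (5.27% of all probe sets) and 1 lower (5.84%).

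Ldha encodes the lactate dehydrogenase subunit that prevails in muscle and tumors and turns pyruvate into lactate. Its intensities were 90, 63.6 and 56.2 in SS-TAM, against 45.7, 54.8 and 56.2 in GCM. SS-TAM 1 stood above the rest, and SS-TAM 3 equalled GCM 3. The log2 fold change of 0.40 did not pass the test (95% CI -0.07 to 0.86, adjusted p = 0.252). Ldhb, the heart-type subunit, had nearly the same log2 fold change (difference 0.0044, exact permutation p = 1).

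**Figure D3:**
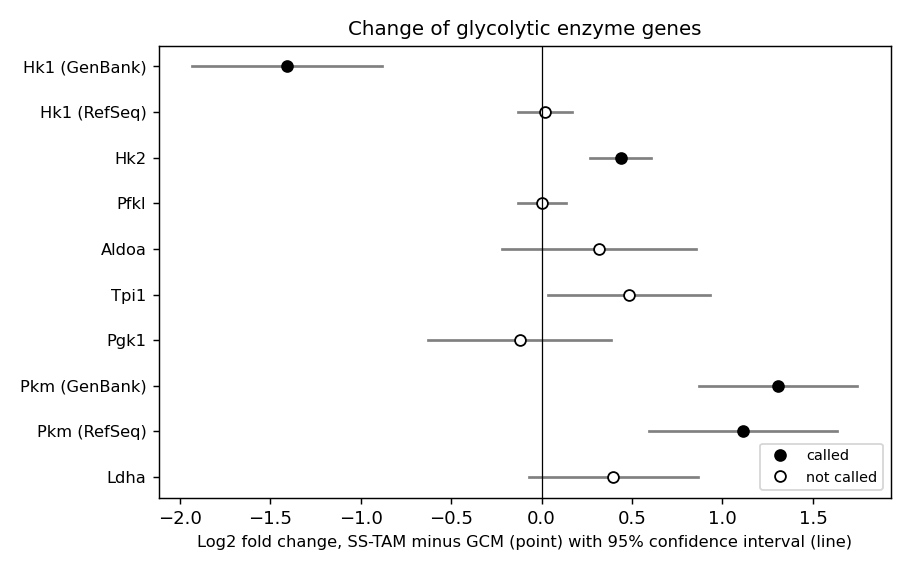
Log2 fold change (SS-TAM minus GCM, deposited scaling) with its 95% confidence interval for 8 glycolytic enzyme genes, with both probe sets for Hk1 and Pkm and filled points for calls. Both Pkm points lie above 1, Hk2 lies at 0.44, and Hk1 differs between its probe sets (-1.41 and 0.02), while scaling to the macrophage markers moved Hk2 to -1.16 and Pkm to -0.29.

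The spread within a group came from the same arrays for several of these genes. SS-TAM 3 was the highest SS-TAM array for 5 of the 8 genes, and GCM 2 the lowest GCM array for 6 of 8. How often these arrays held those ranks over all genes was not counted, so the ranks may not be particular to glycolytic genes. Calls among bright genes were mostly lower in SS-TAM. Among 894 genes with a mean intensity above 50, 37.4% were called lower and 13.2% higher, and their median log2 fold change was -0.45. Glycolytic genes supplied 5 of them (Hk1, Aldoa, Pgk1, Pkm and Ldha), with 1 called lower and 1 higher.

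Among 88 measured genes of the same steps and of the routes around them, 8 were called higher (9.09%) and 3 lower (3.41%), beside 5.16% and 4.74% of all genes. Of 16 measured of 20 other glycolytic enzymes and isozymes, 3 were called higher, 0 lower, and the median log2 fold change was 0.09. Pgam1, the phosphoglycerate mutase between Pgk1 and enolase, had 30.5, 25.2 and 31.2 in SS-TAM, against 19, 21.3 and 18.9 in GCM. All SS-TAM arrays were higher (log2 fold change 0.55, adjusted p = 0.0289). The other calls were Pfkm, the muscle phosphofructokinase subunit (0.40, adjusted p = 0.037), and Aldoc, the brain aldolase (0.26, adjusted p = 0.0247), both at intensities near the array median. Gapdh was named only by probe sets that also name other genes and was not analysed here. Of 4 measured genes that set the level of fructose 2,6-bisphosphate, the activator of phosphofructokinase, Tigar was called higher (0.34, adjusted p = 0.0479). Tigar was dim, with means of 8.97 in SS-TAM and 7.07 in GCM. The others, among them Pfkfb3 with 36.6, 51.2 and 49.9 in SS-TAM and 30, 56.8 and 85.3 in GCM, were not called.

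Lactate and glucose cross the membrane through carriers. A list of 9 genes held some of these carriers and Bsg, which is not itself a carrier. All 9 were measured, with 2 called higher, 0 lower and a median log2 fold change of 0.37. Slc16a3 (MCT4), a lactate exporter of glycolytic cells, had 13.6, 15 and 17.3 in SS-TAM, against 9.9, 9.9 and 9.3 in GCM. Every SS-TAM array was above every GCM array (log2 fold change 0.65, SE 0.10, adjusted p = 0.015). Slc16a7 (MCT2) was also called higher (0.45, adjusted p = 0.0497). It was dim, with 7.2, 8.4 and 8.2 in SS-TAM, against 6.5, 5.3 and 5.7 in GCM. Slc2a1 (GLUT1), the common glucose transporter, had 16.8, 15.3 and 45.4 in SS-TAM, against 16.8, 16.5 and 19.1 in GCM. SS-TAM 3 alone stood above the other arrays, and the gene was not called (adjusted p = 0.593).

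The routes that use or make the same sugars came next. In the pentose phosphate pathway, 0 of 6 measured genes were called in either direction, with Pgd, which makes NADPH, at 0.53 (adjusted p = 0.0914), and 0.02 as the median. Of 7 gluconeogenesis genes Fbp2 was called higher (0.48, adjusted p = 0.0238), and of 10 glycogen genes Gys1, a glycogen synthase (0.50, adjusted p = 0.0135), with 0 called lower in either list. Their medians were 0.23 and 0.20, and 7 of 7 and 8 of 10 genes had a positive log2 fold change. Over all genes, 11959 of 19938 had a positive one. Fbp2 and Gys1 were dim, with means of 4.07 and 4.33 in GCM. Downstream in the mitochondrion, 1 of 12 genes of pyruvate entry was called lower, Pdp2, a phosphatase that activates pyruvate dehydrogenase (-0.42, adjusted p = 0.0151), and 0 higher. Pdp2 was dim, with means of 5.8 in SS-TAM and 7.73 in GCM. Of 16 citric acid cycle genes, 1 was called lower, Suclg1, a succinyl-CoA ligase subunit (-0.61, adjusted p = 0.031), and 0 higher. The medians of these lists were -0.01 and -0.03.

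A list of 8 genes held transcription factors that act on glycolytic genes, and Txnip, which is not one. Hif1a, the oxygen-regulated subunit of HIF-1, had 19.7, 16.7 and 15.4 in SS-TAM, against 26.2, 29.1 and 24 in GCM. All SS-TAM arrays were lower (log2 fold change -0.62, SE 0.12, adjusted p = 0.03). The other 7 were not called, among them Myc with 30.7, 21.9 and 25.8 in SS-TAM and 42.8, 29.9 and 33.3 in GCM, and the median of the list was -0.18. HIF-1 is controlled mainly through the stability of this protein, which arrays do not measure. T cell markers, which stood far lower in SS-TAM, moved in the same direction as Hif1a, and their part in it was not tested.

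**Figure D4:**
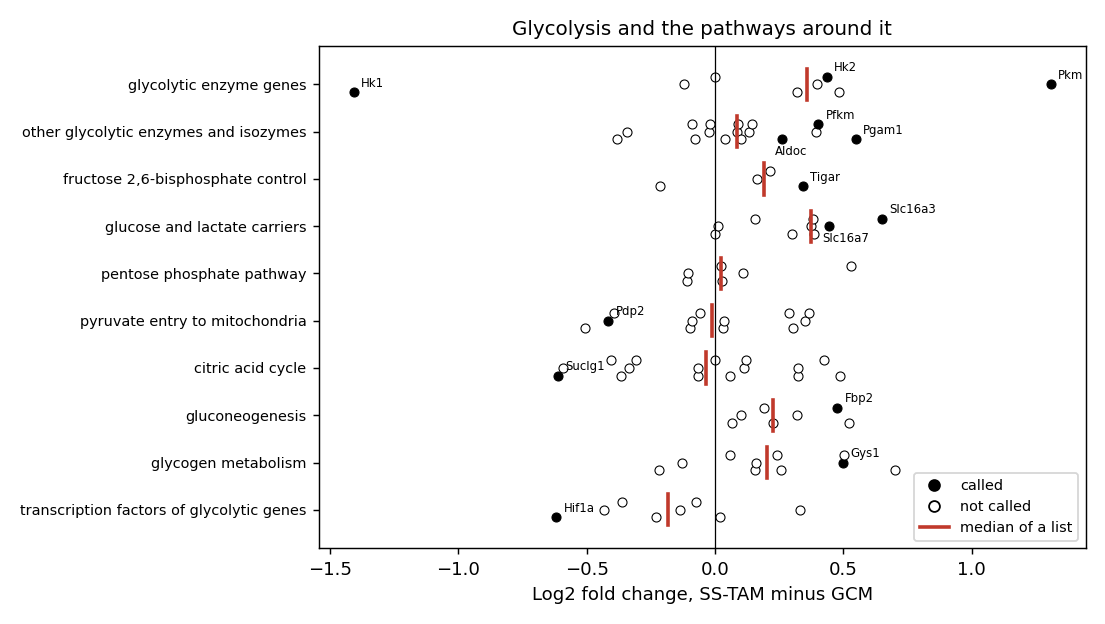
Log2 fold change (SS-TAM minus GCM, deposited scaling) of each measured gene in glycolysis and 9 lists around it, with calls as filled, named points and the list median as a red line. Medians lie between -0.18 for the transcription factor list, which includes Txnip, and 0.37 for the list of glucose and lactate carriers. Every called gene shown as higher turned negative when arrays were scaled to the macrophage markers, which moved the median of all genes to -1.56.

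Of the 11 calls among these surrounding genes, none held in all of the 6 fits that leave out 1 array, while Pkm held in 6 of 6 by its brighter probe set and in 1 of 6 by its RefSeq probe set. Slc16a3, Gys1, Pdp2 and Aldoc held in 3 of 6 fits, those that leave out an SS-TAM array, and were lost without any 1 of the GCM arrays. Hif1a and Pgam1 held in 1 of 6, and Tigar and Slc16a7 in 0 of 6. Pfkm, Aldoc, Tigar and Slc16a7 also lost their calls both after quantile normalization and with arrays centred on their medians (adjusted p 0.0663 to 0.124), and Suclg1 after quantile normalization (0.0565). With dim probe sets left out (mean intensity under 10), 4 of the 11 remained and were called, Pgam1, Slc16a3, Suclg1 and Hif1a, and the other 7 were not tested.

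**Figure D5:**
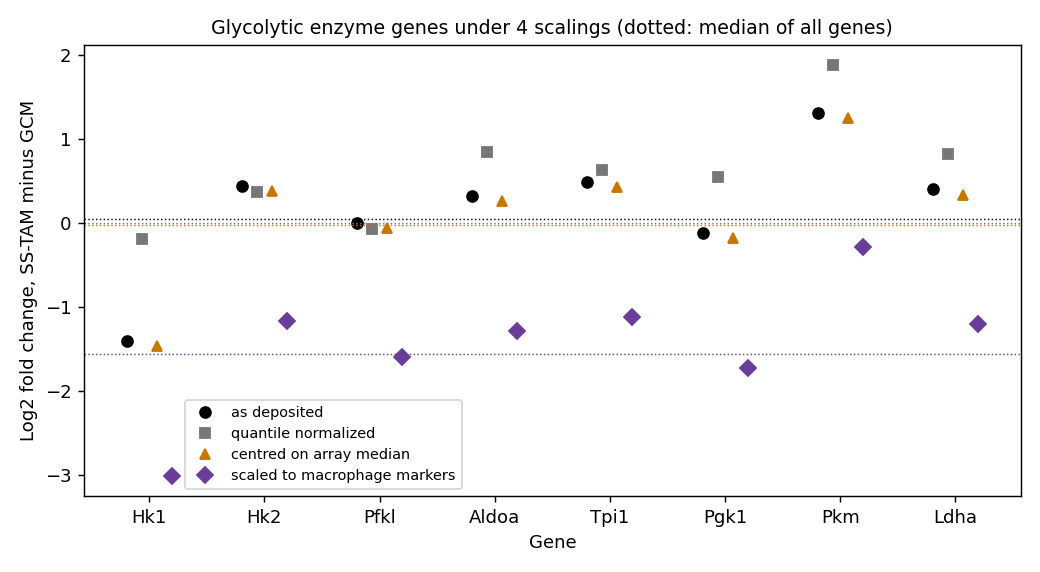
Change of the 8 glycolytic enzyme genes (log2, SS-TAM minus GCM) under 4 scalings of the arrays, with the median of all genes under each as a dotted line. Each gene is shown by its brightest probe set. Pkm lies highest under each scaling (1.31 as deposited, 1.87 quantile normalized, 1.25 centred on the array median and -0.29 scaled to macrophage markers), and Hk1 lies lowest (-1.41, -0.19, -1.47 and -3.01). The RefSeq probe set of Hk1, not plotted, had 0.02, -0.03, -0.04 and -1.58 in the same order.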

How the data were processed

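RNA of 6 laser-captured samples was amplified (NuGEN WT-Ovation Pico) and hybridised to Affymetrix Mouse Gene 1.0 arrays. The values the authors deposited are linear intensities, 1 per probe set and array. The submitters' processing notes name RMA (background correction, normalization and summary) and limma, with versions and genome build not given in the sources used here. Values were set to log2 and not normalized again. Of 28944 probe sets, 21789 named 1 gene, 1621 several and 5534 none in the platform annotation, and 21698 matched RefSeq gene IDs. A gene was represented by its probe set of highest mean (999 genes had several), which gave 19938 genes. Groups came from the labels. SS-TAM minus GCM was tested with limma 3.58.1 (lmFit and eBayes) in R 4.3.3, with Benjamini-Hochberg adjustment over all genes at 0.05, and the fit was tested on simulated data. Isozyme pairs were compared by an exact permutation test. Named genes were all 10 members and the called genes of 9 pathway lists, with others named for context after their values were seen. Members and lists were chosen with earlier results of these data known. Alternatives changed scaling, filter, probe set choice, fit and arrays. The number of arrays limits the precision. Promoter windows came from RefSeq on GRCm38.p6, not the files' coordinates. Markers of red blood cells (4 of 10 measured), endothelium (8) and cell division (11) had 0 calls in either direction, fibroblast and pericyte markers had 3 higher of 10 and 0 lower, and follicular dendritic cell markers 1 higher and 3 lower of 7.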

Additional observations from a re-analysis of the deposited data

How the results depend on the processing

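The limits are 3 arrays a group, 1 scaling chosen by the depositors and probe sets of unclear target. Of the 8 genes, 0 were called lower after quantile normalization, 7 with arrays scaled to the macrophage markers (98.8% of all genes were called lower there) and 0 with Hk1 read from its RefSeq probe set (added after seeing the data), and 0 to 1 when 1 array was left out (0 without SS-TAM 2 or any GCM array). Those called higher numbered 0 under macrophage scaling, 1 with dim probe sets left out (6 genes tested), 1 with array weights, 1 with a 2-fold minimum, and 1 to 2 with 1 array left out (1 without GCM 1 or GCM 2). Of the 12 probe sets, those called lower numbered 0 after quantile normalization, 11 under macrophage scaling and 0 to 1 with 1 array left out, and those called higher 0 under macrophage scaling and 1 to 3 with 1 array left out. Macrophage scaling, which moved all genes by construction, reversed Hk2 (-1.16), Pfkl (-1.60), Aldoa (-1.28), Tpi1 (-1.12), Pkm (-0.29), Ldha (-1.20), Pfkm (-1.20), Aldoc (-1.34), Pgam1 (-1.05), Tigar (-1.26), Slc16a3 (-0.95), Slc16a7 (-1.16), Fbp2 (-1.12), Gys1 (-1.10) and the RefSeq probe sets of Pkm (-0.49) and Hk1 (-1.58). By its RefSeq probe set, Hk1 had a log2 fold change of 0.0192, which was not called (limma adjusted p = 0.864). Over all genes, leaving out GCM 1, 2 or 3 gave 348, 271 or 303 called higher and 499, 399 or 433 lower, and dim probe sets left out gave 626 higher and 947 lower among 5366. The arrays came from 6 mice, and the replicate numbers were not taken as pairs. Deviations of arrays with the same number had correlations of 0.08, 0.094 and 0.011, which were not set against those of arrays with unlike numbers. With the numbers as a block, 2 of 8 genes were called higher and 1 lower, and 2 probe sets higher and 1 lower. Over all genes, 611 were called higher and 708 lower there. The cause of the other changes was not tested.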
